A study of Homo sapiens with 12 samples.

Results

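The comparison set OVCAR-3 cells treated with Fusicoccin A (FC-A) and interferon alpha together (the Combination, 3 libraries) against cells given only DMSO, the solvent control (3 libraries), and asked what both agents together did to the messenger RNA of the cells. OVCAR-3 is an established human cell line from an ovarian adenocarcinoma, labelled as epithelial and wild type, and every library was taken at 6 h. All genes that averaged at least 10 normalized reads over the 12 libraries of the experiment were followed, 15990 of 28035 listed genes. The other 6 libraries, 3 with FC-A only and 3 with interferon alpha only (IFNa), entered the estimate of the spread and serve as side comparisons. No source used here gives the doses, or says whether the replicates came from separate cultures. The p-values therefore measure only the spread between these libraries, which may be technical.

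Interferon alpha binds a receptor of the chains IFNAR1 and IFNAR2, and the attached kinases JAK1 and TYK2 phosphorylate STAT proteins, STAT2 among them. With IRF9 these form the complex ISGF3, which enters the nucleus and binds the interferon-stimulated response element in front of antiviral, antigen presentation and chemokine genes. FC-A is a fungal glycoside that stabilises complexes of 14-3-3 adapter proteins with phosphorylated partners. In tumour cells, type I interferons are known for slowing growth and for raising death ligands.

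The 6 compared libraries held 31181742 to 35917611 reads assigned to genes. All 15 markers fixed for ovarian epithelium were present, with summed levels of 461591 to 476373 normalized reads in DMSO and 485290 to 523944 in the Combination. The 9 fibroblast markers summed to 1089 to 1156 in DMSO and from 1809.8 to 2448 in the Combination, mostly COL1A1, a collagen chain that rose (means 815 and 1788), while DCN and LUM were at 0 in all 6 libraries. The 7 listed leukocyte markers summed to 241 to 277 and 239 to 319, and the 5 listed endothelial markers to 291 to 373 and 188 to 242. The part of these cell types in the results was not tested. In bulk libraries, more cells of a type and more RNA per cell cannot be told apart. On the second principal component of all 12 libraries (6.51% of the variance), replicate 3 lay lowest in every group. Without replicate 3 of every group 7678 genes were called, against 7724 with it, and 6928 were called in both fits.

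The Combination changed close to as many genes upward as downward, but the large changes were increases. Of the 15990 genes, 7724 (48.3%) passed limma's test at an adjusted p below 0.05, 4167 (26.1%) higher and 3557 (22.2%) lower. These shares are the background for every count of a gene list given below. At least 2-fold, 1569 genes (9.81%) were called, of which 1026 (6.42%) were higher and 543 (3.4%) lower, and at least 10-fold the counts were 160 and 1. The median log2 difference of all tested genes was -0.01, and 79.7% of the calls were smaller than 2-fold. Increases made up 53.9% of the calls, and 35.9% under quantile normalization, under which the median of all genes was -0.11. The direction of small differences can therefore depend on the scaling. Log2 differences and folds are on the scale of log2 of the normalized reads plus 1, which understates changes of genes with few reads.

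The normalized reads summed over all genes were 32427206 ± 176749 in DMSO (SD, n = 3) and 36946248 ± 127610 in the Combination, so the groups differed by far more than their spread. The genes that were at least 2-fold higher took up 2.63% ± 0.0197 of each DMSO library and 11.4% ± 0.32 of each Combination library. These genes were chosen by the same difference, so the shares are a description.

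**Figure D1:**
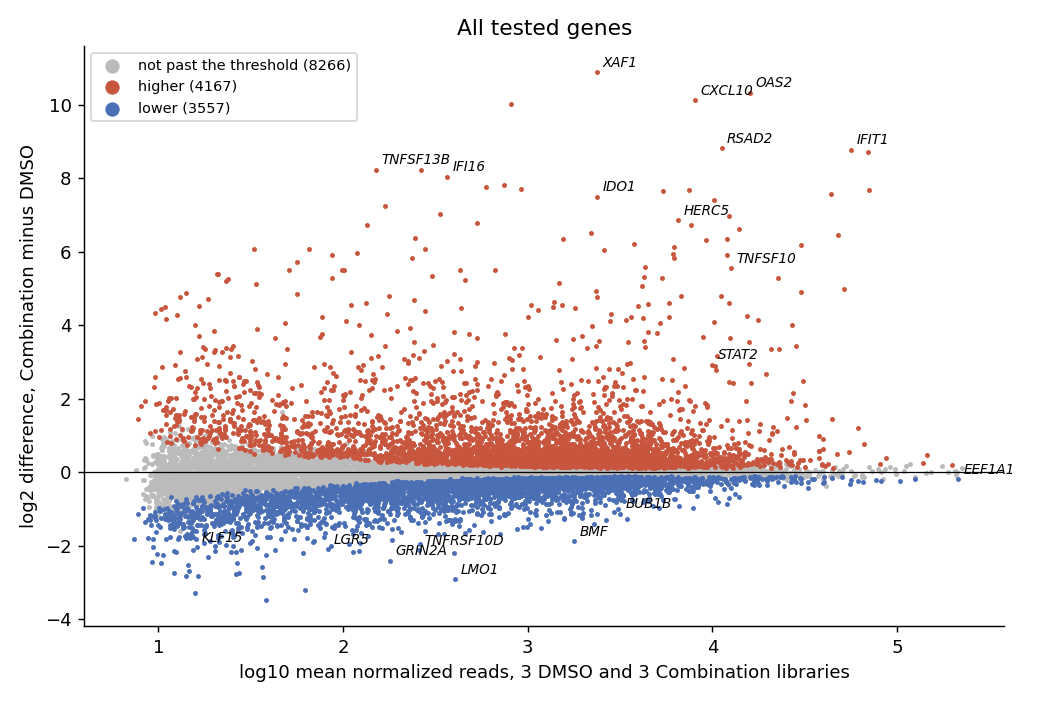
Each point is 1 of the 15990 tested genes. The horizontal axis is the log10 mean of normalized reads over the 3 DMSO and 3 Combination libraries, the vertical axis the log2 difference, and colours mark limma calls (4167 higher, 3557 lower). Increases reached 10.88 (XAF1), and decreases among the named genes reached -3.21 (RP4-738P15.1, not marked by name in the plot).

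STAT2 and IRF9, components of ISGF3, rose strongly, and the receptor chain IFNAR2 much less. STAT2, the signal transducer, stood at 2289, 2194 and 2517 normalized reads in the DMSO libraries and at 16842, 17464 and 18652 in the Combination libraries. All Combination libraries lay far above all DMSO libraries, a 7.57-fold difference (log2 2.92, SE 0.10, limma adjusted p = 1.34e-11). IRF9, the DNA-binding part, rose from 27.2, 31.6 and 29.6 to 226, 240.4 and 219 (7.54-fold, adjusted p = 1.53e-08). The groups did not overlap for either gene, as was so for 31.4% of all tested genes in the higher and 29.4% in the lower direction. These shares stand beside each later statement that groups did not overlap, so a lack of overlap alone says little. STAT3, a related transducer, rose 1.85-fold (adjusted p = 1.30e-07). IFNAR2, the long signalling chain of the receptor, rose 1.32-fold (adjusted p = 0.000163). IFNAR1 did not pass, with 2560.4, 2596 and 2589 in DMSO and 2624, 2662 and 2835 in the Combination (log2 0.07, adjusted p = 0.338, or -0.09 under quantile normalization). Of the pathway, 6 of 8 genes passed the test as higher and none as lower (median log2 0.88), where 26.1% of all tested genes rose and 22.2% fell. The other that did not pass was TYK2, named here after its value was seen.

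Inhibitors that close the pathway rose alongside. USP18, a protease that also blocks the receptor from within the cell, went from 444, 453 and 523 to 13889, 13485 and 11844 normalized reads. SOCS1, which inhibits the JAK kinases, went from 87.1, 86.1 and 59.1 to 800.0, 722 and 636. Both sets of libraries were far apart, and the differences were 27.6-fold and 9.29-fold (limma adjusted p = 1.66e-15 and 1.63e-10). SOCS2 rose 2.28-fold (adjusted p = 3.95e-05). Increases were called for 8 of 11 feedback genes and decreases for none (median 0.17), and under quantile normalization 5 rose and 1 fell. Without DMSO replicate 2 or Combination replicate 1, 5 rose. The list has 4 genes at or above 2-fold, ISG15, USP18, SOCS1 and SOCS2.

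The transcription factors that carry the response further all rose. IRF7, which amplifies type I interferon production, rose from 350.1, 363 and 354 to 8800.1, 8423 and 8486 normalized reads (24-fold, limma adjusted p = 2.87e-16). IRF1 rose from 1285, 1281 and 1298 to 10800.1, 11124 and 10784 (8.46-fold, adjusted p = 1.51e-15). BATF2, a basic leucine zipper factor, was near absent in DMSO at 1.81, 6.7 and 6.67 and reached 1202, 1086 and 1265. Each Combination value was several times the highest DMSO value. In all, 9 of 9 tested interferon regulatory and related factors rose (median 1.53), or 8 of 8 without BATF2, which averaged below 10 in DMSO (median 1.11). ETV7, an ETS repressor, rose 8.11-fold.

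Antiviral effectors formed the group with the largest differences. All 42 listed effectors passed the filter and rose, 40 of them at least 2-fold, with a median log2 difference of 5.32. Without the 2 that averaged below 10 in DMSO, 40 of 40 rose (median 4.99). OAS2, an enzyme that makes the activator of the nuclease RNase L, went from 25.4, 16.3 and 33.4 to 31628, 31845 and 32730.0 normalized reads. RSAD2 (viperin), which makes a chain-terminating nucleotide, went from 49.9, 44 and 52.4 to 21358, 22730.3 and 22999. IFIT1, which binds foreign RNA ends, went from 254, 233 and 282 to 108903, 109820.0 and 118704. Every Combination library lay far above every DMSO library. The differences were 1282-fold, 450.2-fold and 438-fold (limma adjusted p = 1.91e-13, 8.58e-17 and 6.73e-16). IFIT2, another RNA-binding member of the family, rose 421-fold (adjusted p = 5.74e-17), and the values of IFIT genes are uncertain where their near-identical copies shared reads.

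Several effectors had so few DMSO reads that only a ratio of reads describes them, with intervals that cover counting error only. XAF1, an antagonist of the caspase inhibitor XIAP, had 5 reads in the 3 DMSO libraries and 12975 in the Combination, 3040.2-fold higher (95% interval 1302 to 9365). APOBEC3G, a deaminase that mutates viral DNA, had 3 reads in DMSO and 503, 519 and 553 normalized reads in the Combination libraries, 559.6-fold higher (95% interval 191 to 2717). IFI16, a sensor of nuclear and cytosolic DNA, had 6 and 1985 reads, 388-fold higher (95% interval 178 to 1057). These passed the abundance filter only through the libraries with interferon, as did all 9 tested genes that were at 0 in every DMSO library, so their calls support nothing. In all, 610 tested genes averaged below 10 in DMSO or in the Combination. Among them were 2 of the 42 antiviral effectors, 3 of 13 sensors, 3 of 12 chemokines, 2 of 20 immediate early genes, 2 of 14 EGF family genes, and 1 each of the interferon regulatory, class I, cytokine, FOXO and matrix protease lists. Their values are given as descriptions, without a p.

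The interferon-stimulated response element is known by its core, GAAA and again GAAA with any 2 bases between them, and this core was searched on both strands. Read on the other strand it is TTTC, 2 bases, TTTC, and matches that overlap were all counted. The stretches below, from RefSeq promoters on GRCh38.p14, are shown because they carry that core in front of members from different functional groups. Each reads 5′ to 3′ along the gene's strand, with the core matches in capitals.
IFIT1 (chr10:89392495-89392554, plus strand): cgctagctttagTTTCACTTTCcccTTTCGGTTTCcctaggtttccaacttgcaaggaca
ISG15 (chr1:1013365-1013424, plus strand): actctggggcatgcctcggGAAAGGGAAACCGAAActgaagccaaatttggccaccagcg
CXCL10 (chr4:76023684-76023743, minus strand): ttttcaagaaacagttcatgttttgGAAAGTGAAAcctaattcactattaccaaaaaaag
TAP1 (chr6:32853798-32853857, minus strand): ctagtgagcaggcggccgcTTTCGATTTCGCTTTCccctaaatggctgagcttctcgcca
TNFSF10 (chr3:172523583-172523642, minus strand): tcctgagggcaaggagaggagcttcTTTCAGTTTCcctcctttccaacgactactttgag
CD274 (chr9:5450315-5450374, plus strand): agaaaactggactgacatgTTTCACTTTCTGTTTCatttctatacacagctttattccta
SOCS1 (chr16:11256283-11256342, minus strand): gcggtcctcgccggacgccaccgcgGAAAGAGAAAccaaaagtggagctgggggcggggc
The stretches of IFIT1, ISG15, TAP1 and CD274 held 2 matches each, and the others 1. Looked up were 68 of the 266 named genes. They were those with the largest changes and members of the interferon-linked, antigen presentation, chemokine, cytokine, ligand and death lists. Members of other lists, such as mitosis or sterol genes, were not looked up. Of the 68, 39 had a RefSeq promoter and 13 held the core in the 250 bases before the start. Of all 27305 promoters on the main chromosomes, 3.07% held it in that window, and 3.65% in the whole window of 300 bases. Because the lists looked up were picked for such links, the 13 of 39 cannot be compared with that share. A match describes the letters only. The windows of XAF1, CXCL11 and RSAD2 held none, nor did those of the 4 genes with a promoter among the 10 largest decreases at a mean of at least 50.

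Sensors that detect viral nucleic acid rose together with the effectors. IFIH1 (MDA5), a sensor of long double-stranded RNA, went from 396, 387 and 382 to 22634, 22887 and 25225 normalized reads. The groups lay far apart, a 60.4-fold difference (limma adjusted p = 3.74e-17). ZBP1, a sensor that can start necroptosis, went from 7.26, 6.7 and 7.63 to 439, 484 and 471, and it passed the filter only through the libraries with interferon. Increases covered 12 of 13 sensors and adapters, with no decrease (median 3.76), or 9 of 10 without those below 10 in DMSO (median 2.94).

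Both protein modification systems linked to interferon rose. ISG15, a ubiquitin-like modifier, went from 1017, 1028 and 1189 to 95666, 91197 and 96440.0 normalized reads (87.7-fold, limma adjusted p = 4.52e-17). HERC5, the ligase that attaches it to new proteins, went from 109.7, 109 and 113 to 12718, 13117 and 13073 (116-fold, adjusted p = 3.57e-18), and UBA7, its activating enzyme, rose 19.6-fold. All 7 ISG15 conjugation genes rose at least 2-fold (median 4.29). Among 7 ADP-ribosylation genes 6 rose, led by PARP14 with 3026, 3176 and 3365 in DMSO and 93426, 100600.0 and 107492 in the Combination (31.5-fold, adjusted p = 5.74e-17). PARP9 and PARP12, a partner of the ligase DTX3L and an antiviral member, rose 17.5-fold and 14.1-fold. PARP1, the DNA damage enzyme of the family, was the 1 that fell (log2 -0.29, adjusted p = 0.0091).

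**Figure D2:**
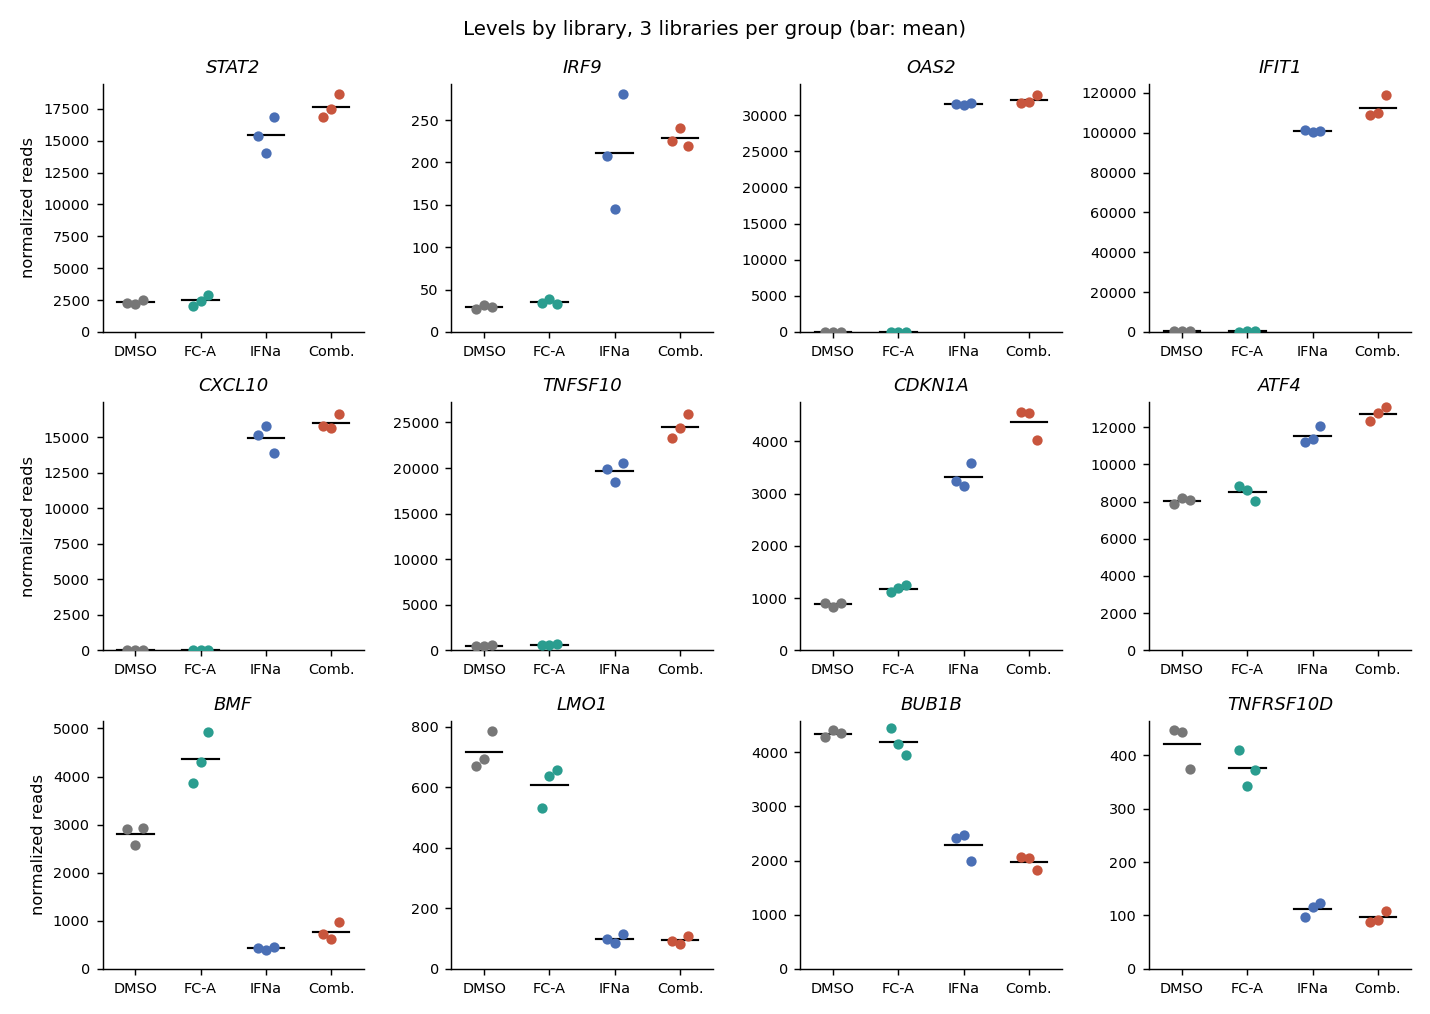
Normalized reads (vertical axes, each from 0) of 12 genes in every library of the 4 groups, with a bar at the mean of 3. STAT2 lies between 2194 and 2517 in DMSO and between 16842 and 18652 in the Combination, and BUB1B between 4277 and 4411 and between 1823 and 2067. The libraries with FC-A only lie near DMSO for STAT2, OAS2 and IFIT1.

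Genes of antigen presentation rose for both classes of MHC. TAP1, which carries peptides into the endoplasmic reticulum, went from 1008, 987 and 892 to 23474, 23552 and 23486 normalized reads. NLRC5, the transactivator of class I genes, went from 247, 269 and 286 to 4073, 4382 and 4109. No values overlapped between the groups, and the differences were 24.4-fold and 15.6-fold (limma adjusted p = 3.39e-15 and 1.27e-15). PSMB9, an immunoproteasome subunit, rose 23.4-fold (adjusted p = 1.04e-12). Of 22 class I genes, 21 rose and 1 did not pass (median 2.24), or 20 of 21 rose without the 1 below 10 in DMSO (median 2.16). The values of single HLA genes are uncertain because of near-identical copies. HLA-G had 4 reads in the DMSO libraries and 83 in the Combination, 24.3-fold higher (95% interval 9.15 to 91.3).

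Class II genes rose from low levels. CIITA, their master transactivator, went from 161, 148 and 215 to 703, 744 and 905 normalized reads (4.49-fold, limma adjusted p = 5.04e-07). CTSS, the protease that trims the invariant chain, went from 163, 162 and 205 to 1490.2, 1479 and 1883 (9.11-fold, adjusted p = 9.53e-10). All Combination values were above all DMSO values. The 9 class II genes past the filter all rose (median 1.99), while 1 of the 10 listed was too low to test.

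Secreted signals that draw leukocytes rose by some of the largest factors. CXCL10, which attracts T cells through the receptor CXCR3, went from 14.5, 11.5 and 14.3 to 15775, 15664 and 16624 normalized reads (1115-fold, limma adjusted p = 8.09e-16). CXCL11, a ligand of the same receptor, had 2 reads in DMSO and 4457 in the Combination, 2611-fold higher (95% interval 722 to 21565). CX3CL1 (fractalkine) went from 146, 161 and 141 to 4212, 4983 and 4415 (30.2-fold, adjusted p = 3.14e-15). The neutrophil chemokine IL8 went from 111, 112 and 93.4 to 2861, 2975 and 2145 (24.9-fold, adjusted p = 3.70e-11). The 12 chemokines past the filter rose at least 2-fold (median 3.84), 9 of them from a DMSO mean of at least 10 (median 3.42).

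Cytokines followed in part. TNFSF13B (BAFF), a survival factor of B cells, had no read in the DMSO libraries and 819 in the Combination, at least 319.8-fold higher with the DMSO group set to 3 reads. IL6 went from 42.6, 32.5 and 15.3 to 330.3, 256 and 173 normalized reads and TNF from 59.9, 43.1 and 42 to 477, 425 and 306, differences of 8.54-fold and 8.16-fold (limma adjusted p = 4.64e-06 and 3.68e-06). In both groups replicate 3 held the lowest value of both genes. LIF, a cytokine of the IL6 family, rose 4.52-fold (adjusted p = 7.17e-09). Increases covered 10 of 13 cytokines, and 3 did not pass (median 0.96, also with TNFSF13B at its bound). Without TNFSF13B, 9 of 12 rose (median 0.89).

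Genes of ligands that restrain T cells, and of the enzyme IDO1, were among the increases. IDO1, which depletes tryptophan, went from 20.9, 23.9 and 31.5 to 4482, 4267 and 5453 normalized reads, and LGALS9 (galectin-9) from 586, 593 and 569 to 10182, 9742 and 9379. CD274 (PD-L1) went from 35.4, 28.7 and 20 to 387, 448 and 460.2. All Combination libraries lay more than 10-fold above the DMSO libraries in these genes, and the differences were 181-fold, 16.7-fold and 15.2-fold (limma adjusted p = 1.67e-11, 1.81e-16 and 6.62e-10). The adhesion molecule ICAM1 rose 3.46-fold (adjusted p = 9.91e-08). The whole list moved less, 12 of 18 genes being higher and 6 not passing (median 0.52).

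The death ligand TRAIL and a death receptor for it rose, while a decoy receptor fell. TNFSF10, the gene of TRAIL, went from 521, 482 and 573 to 23325, 24386 and 25958 normalized reads (46.7-fold, limma adjusted p = 4.70e-16). TNFRSF10A, a TRAIL receptor with a death domain, went from 829, 862 and 750.4 to 2737, 2827 and 2431 (3.27-fold, adjusted p = 5.55e-09), and FAS from 434, 477 and 498 to 1442, 1509.9 and 1536 (3.19-fold, adjusted p = 1.52e-09). TNFRSF10D, a decoy TRAIL receptor with a truncated death domain, went the other way, from 447, 444 and 375 to 88.7, 92.4 and 108 (4.35-fold lower, adjusted p = 3e-09). For all of them the libraries of the groups did not overlap. TNFRSF1B, a receptor of TNF without a death domain, went from 33.6, 36.4 and 46.7 to 268, 236 and 252 (6.39-fold, adjusted p = 2.56e-08). Of 13 genes of the death ligand, receptor and caspase-8 list, 11 rose, 1 fell and 1 did not pass (median 1.05). One of those that rose was CFLAR, an inhibitor of caspase-8 (2.72-fold, adjusted p = 5.96e-07).

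Most genes of lytic death rose, and BCL2 family genes were called in both directions, more often higher. CASP1, the inflammatory caspase, went from 149, 132 and 156 to 1392, 1399 and 1830.1 normalized reads (10.4-fold, limma adjusted p = 2.58e-11), and MLKL, the pore former of necroptosis, rose 4.61-fold (adjusted p = 1.98e-09). RIPK2, a kinase of NOD receptor signalling, rose 3.72-fold (adjusted p = 8.98e-09). Of 10 tested, 7 rose, 1 fell and 2 did not pass (median 2.02). The 1 decrease, DFNA5 (gasdermin E), was lost without DMSO replicate 3 (log2 -0.19, adjusted p = 0.0604).

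In the BCL2 family the strongest change was a decrease. BMF, which promotes apoptosis as a BH3-only protein, stood at 2911, 2578 and 2928 normalized reads in DMSO and at 728, 619 and 971 in the Combination (all 3 below all of DMSO, 3.69-fold lower, log2 -1.88, SE 0.13, limma adjusted p = 2.91e-08). PMAIP1 (NOXA), another BH3-only protein, went from 189, 240.1 and 176 to 613, 674 and 581 (3.1-fold higher, adjusted p = 8.85e-08). MCL1, a guardian against apoptosis that NOXA binds, went from 11085, 11433 and 11288 to 23851, 24666 and 25199 (2.18-fold higher, adjusted p = 1.68e-11). So both promoters and inhibitors of death rose. BBC3 (PUMA) and the pore former BAK1 rose 1.77-fold and 1.67-fold, and BAD, a BH3-only protein held by 14-3-3, fell (log2 -0.32, adjusted p = 0.00272). Of 15 tested, 8 rose, 2 fell and 5 did not pass (median 0.27), and 5 fell under quantile normalization. Over all tested genes, 26.1% rose and 22.2% fell in the main fit. Without DMSO replicate 3, 5 rose.

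Caspase inhibitors and caspases moved in both directions. BIRC3 (cIAP2) went from 46.3, 46.9 and 45.8 to 436, 452 and 401 normalized reads (9.1-fold, limma adjusted p = 4.30e-07). XIAP, which blocks executioner caspases, went from 1800.4, 1815 and 1808 to 2697, 2816 and 2921 (1.55-fold, adjusted p = 3.22e-08). BIRC2 (cIAP1) rose 2.21-fold, and BIRC5 (survivin), a mitotic member of the family, fell 1.45-fold (adjusted p = 3.23e-09 and 0.000352). APAF1 and CASP9, the core of the apoptosome, fell (log2 -0.50 and -0.54, adjusted p = 2.63e-05 and 0.000546). Of 11 tested, 4 rose, 4 fell and 3 did not pass, where 26.1% of all tested genes rose and 22.2% fell.

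The eIF2 kinases of the integrated stress response did not move together. EIF2AK2 (PKR), the kinase activated by double-stranded RNA, went from 2436, 2459 and 2490.5 to 17654, 18486 and 18682 normalized reads (7.42-fold, limma adjusted p = 8.88e-16). EIF2AK4 (GCN2), the kinase activated by amino acid shortage, went from 2982, 2956 and 2873 to 2219.6, 2329 and 2160.0 (log2 -0.39, adjusted p = 0.000339). GCN1L1, the older symbol of the GCN2 activator GCN1, did not pass, with 12009, 11535 and 12194 and 11647, 12329 and 12818 and overlapping libraries (log2 0.04, adjusted p = 0.557, but -0.21 under quantile normalization). PPP1R15A (GADD34), which brings a phosphatase back to eIF2, rose 1.62-fold (adjusted p = 2.38e-07). ATF4, the transcription factor translated when eIF2 is phosphorylated, went from 7865, 8192 and 8083 to 12302, 12754 and 13079.6 (1.58-fold, adjusted p = 5.87e-08). Of 10 genes in the list, 5 rose, 2 fell and 3 did not pass, where 26.1% of all tested genes rose and 22.2% fell. Only EIF2AK4 fell without DMSO replicate 2 or 3, FC-A replicate 1, or any 1 of the IFNa or Combination libraries, since IMPACT, a competitor of GCN2 at GCN1, lost its call there (adjusted p = 0.0511 to 0.198).

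Most known ATF4 targets rose, while enzymes of serine synthesis among them fell. NUPR1, a stress-induced chromatin protein, went from 194, 218 and 229 to 2325, 2333 and 3187 normalized reads (12.1-fold, limma adjusted p = 2.21e-09). CHAC1, which degrades glutathione, went from 156, 166 and 161 to 650.1, 745 and 712 (4.33-fold, adjusted p = 8.06e-10). WARS, a tryptophan tRNA synthetase also known as an interferon target, rose 10.7-fold, and the stress cytokine GDF15 rose 6.69-fold. PSAT1, of serine synthesis, went from 4488, 4465 and 4349.8 to 3165, 3125 and 3107, and PHGDH, of the same route, from 10325, 10421 and 10808 to 8715, 8913 and 8374 (log2 -0.50 and -0.28, adjusted p = 1.14e-06 and 0.00019), with no overlap between groups. Of 33 targets, 21 rose, 5 fell and 7 did not pass (median 0.42), and 9 fell under quantile normalization.

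Other stress programs moved less than the interferon genes. HERPUD1, a component of degradation at the endoplasmic reticulum, rose 1.77-fold (limma adjusted p = 5.35e-08), and the chaperone HSPA5 (BiP) rose 1.45-fold (adjusted p = 9.84e-06). In the unfolded protein response 13 of 19 genes rose and 6 did not pass (median 0.28), but 6 rose and 2 fell under quantile normalization. DNAJA1, a co-chaperone of HSP70, rose 2.08-fold (adjusted p = 2.74e-07) as the 1 heat shock gene of 14 past 2-fold, with 7 higher, 1 lower and 6 not passing. Of 15 targets of the oxidative stress factor NRF2, 1 rose, 2 fell (4 without Combination replicate 3) and 12 did not pass, and AKR1B10, an aldo-keto reductase, fell 2.38-fold (adjusted p = 1.11e-05). Over all tested genes, 26.1% rose and 22.2% fell. Genes of hypoxia and glycolysis had 16 increases among 20, with no decrease (median 0.73), led by the vascular peptide ADM (4.15-fold, adjusted p = 3.63e-09). The growth factor VEGFA and the glycolytic kinase HK2 rose 2.34-fold and 2.38-fold (adjusted p = 2.65e-06 and 1.31e-08).

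NF-kB genes and immediate early genes rose. TNFAIP3 (A20), a deubiquitinase that restrains NF-kB, went from 753, 701 and 605 to 5036, 5057 and 4322 normalized reads (7-fold, limma adjusted p = 4.38e-09). NFKBIA, the inhibitor IkB alpha, rose 2.96-fold (adjusted p = 3e-08). Of 16 NF-kB genes, 14 rose and 2 did not pass (median 0.95). FOSL1, a subunit of AP-1, went from 185, 168 and 138 to 1721, 1766 and 1584 (10.3-fold, adjusted p = 3.22e-10). FOS, another subunit, went from 327, 306 and 375 to 1081, 1080.0 and 1486 (3.58-fold, adjusted p = 1.72e-06), and EGR2, an early zinc finger factor, from 6.35, 4.78 and 7.63 to 61.2, 43.8 and 69.4. MYC, a driver of growth, went from 898, 889.8 and 876 to 2376, 2556 and 2115 (2.64-fold, adjusted p = 5.32e-10). Increases covered 18 of 20 immediate early and AP-1 genes, the other 2 not passing (median 1.39). Without those below 10 in DMSO, 16 of 18 rose (median 1.19).

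Feedback genes of the MAPK cascade and ligands of the EGF receptor rose as well. SPRY4, an inhibitor of receptor kinase signalling, went from 165, 168 and 154 to 1398, 1556 and 1294 normalized reads (8.66-fold, limma adjusted p = 2.94e-13). DUSP6, a phosphatase of ERK, went from 104, 96.6 and 108 to 485, 545 and 493 (4.9-fold, adjusted p = 3.63e-10), and 17 of 18 genes of the list rose with none lower (median 1.02). EREG (epiregulin), a ligand of the EGF receptor, went from 9.07, 4.78 and 3.81 to 41.2, 42.6 and 26.7, and AREG (amphiregulin) from 5.44, 3.83 and 4.77 to 14.8, 42.6 and 23.5. BTC, a further ligand, went from 551, 579 and 647 to 1639, 1669 and 1703 (2.82-fold, adjusted p = 3.71e-08). Of 14 genes of that family, 11 rose, 1 fell and 2 did not pass (median 0.99). Without the 2 below 10 in DMSO, 9 of 12 rose and 1 fell (median 0.74). The number lower was 2 without FC-A replicate 1 or 3 or IFNa replicate 3, and 0 without any 1 of the DMSO libraries or Combination replicate 1 or 3.

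Further pathways of growth and adhesion were mixed. NT5E (CD73), a surface enzyme that makes adenosine and a listed YAP target, went from 89.8, 97.6 and 83 to 655, 778 and 871 normalized reads (8.4-fold, limma adjusted p = 1.15e-10), and 9 of 16 YAP and TEAD targets rose while 2 fell (1 without any 1 of the DMSO libraries, FC-A replicate 2, IFNa replicate 1 or 2, or Combination replicate 1). ID1 and ID3, inhibitors of differentiation, rose 2.08-fold and 2-fold (adjusted p = 0.00183 and 9.09e-05), and 8 of 11 genes of that list rose with 2 lower, or 1 lower without DMSO replicate 2 or Combination replicate 2. Among Wnt genes the ligand WNT5A fell 2.06-fold (adjusted p = 9.04e-07) and the secreted inhibitor DKK1 rose 2.26-fold (adjusted p = 3.15e-05). LGR5, a receptor known from stem cells, went from 152, 141 and 113 to 36.9, 34.3 and 22.4 (4.28-fold lower, adjusted p = 2.04e-06). Of the 16 Wnt genes 6 were higher and 3 lower. As 26.1% of all tested genes rose and 22.2% fell, these counts say little about the Wnt genes as a group. The Wnt genes higher were 2 without DMSO replicate 2 or Combination replicate 3, and 5 were lower without replicate 3 of every group. Of the matrix proteases, MMP13 had no read in DMSO and 181 in the Combination, at least 70.7-fold higher with the DMSO group set to 3 reads. The collagenase MMP1 fell 2.01-fold (adjusted p = 4.74e-05). The urokinase PLAU rose 2.69-fold (adjusted p = 9.07e-11) and its receptor PLAUR 5.09-fold (adjusted p = 7.05e-10). Of the 14 matrix protease genes 7 were higher and 3 lower, or 6 and 3 of 13 without MMP13.

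Mitotic genes fell almost without exception, by moderate amounts. BUB1B, a kinase of the spindle checkpoint, went from 4277, 4411 and 4351 to 2067, 2056 and 1823 normalized reads (2.2-fold lower, limma adjusted p = 2.55e-08). KIF20A, a motor of cell division, went from 4056, 4081 and 4244 to 2034, 2203 and 1917 (2.01-fold lower, adjusted p = 2.92e-09), and CENPF, a kinetochore protein, fell 1.95-fold. All DMSO values were above all Combination values. CDC25C, which activates the mitotic kinase CDK1, fell 2.05-fold (adjusted p = 3.19e-06). Of 25 genes, 23 fell, 1 rose and 1 did not pass (median -0.59). The 1 that rose was CDC25B, a phosphatase of the same family (log2 0.52, adjusted p = 0.000981), whose call was lost under quantile normalization (log2 0.27, adjusted p = 0.0701).

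Among G1 regulators, both inhibitors and drivers moved in both directions. CDKN1A (p21), an inhibitor of cyclin-dependent kinases, went from 903, 838 and 903 to 4567, 4549.8 and 4027 normalized reads (4.96-fold, limma adjusted p = 1.39e-12). CCND1 (cyclin D1) went from 11182, 11382 and 9032 to 26986, 26864 and 23662 (2.46-fold, adjusted p = 1.44e-05). CDKN2C (p18), another inhibitor, went from 166, 172 and 176 to 51.7, 39.1 and 39.5 (3.91-fold lower, adjusted p = 5.67e-08). E2F8 and E2F2, transcription factors of the cell cycle, fell 2.11-fold and 1.69-fold (adjusted p = 1.97e-08 and 4.34e-08). Of 25 G1/S and replication genes 3 rose, 9 fell and 13 did not pass (median -0.26), where 26.1% of all tested genes rose and 22.2% fell. The G1/S genes lower were 4 without Combination replicate 3 and 17 under quantile normalization. Among 18 p53 targets and CDK inhibitors 7 rose and 9 fell (median -0.18). GADD45A, a stress sensor of that list, rose 1.74-fold (adjusted p = 0.000227). BTG2, an antiproliferative p53 target, fell 2.23-fold (adjusted p = 3.75e-08).

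Repair, translation and respiration genes differed by small amounts in the median. Of 20 homologous recombination and Fanconi genes 4 rose, 7 fell (4 without DMSO replicate 2 or Combination replicate 3) and 9 did not pass (median -0.02). Over all tested genes 26.1% rose and 22.2% fell, so these counts say little about repair genes as a group. The helicase BRIP1 rose 1.74-fold (limma adjusted p = 1.59e-05) and BRCA1 fell (log2 -0.40, adjusted p = 0.00106). Of 34 cytosolic ribosomal protein genes 19 fell and 15 did not pass, with all 34 differences below 0 (median -0.13) and 33 lower under quantile normalization. Without DMSO replicate 1, DMSO replicate 3 or Combination replicate 2, 12, 11 and 11 fell. RPL23 went from 22127, 21165 and 22518 to 18092, 17051 and 16848 normalized reads (log2 -0.34, adjusted p = 3.75e-05). Of 13 mitochondrially encoded respiratory chain genes 12 did not pass (median -0.01), and 1 fell, or none without DMSO replicate 2, DMSO replicate 3 or Combination replicate 1, and 2 without FC-A replicate 3. FOXO and insulin-signal targets were divided, 5 higher and 7 lower of 14, or 5 and 6 of 13 without KLF15, which averaged below 10 in the Combination. CCNG2, a cyclin known to slow the cycle, fell 2.23-fold (adjusted p = 1.75e-08). KLF15, a metabolic transcription factor, went from 29, 21 and 28.6 to 3.17, 9.47 and 5.34 (4.14-fold lower), and TRIB1, a pseudokinase, rose 2.61-fold (adjusted p = 5.92e-09).

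Genes of the 14-3-3 proteins, the adapters that FC-A acts on, changed by less than 1.5-fold. SFN (14-3-3 sigma) went from 2105, 2042 and 2057 to 2963, 2759 and 3083 normalized reads and YWHAG (gamma) from 10613, 10458 and 9730.2 to 14543, 14865 and 13941, with no overlap (log2 0.50 and 0.49, limma adjusted p = 3.30e-05 and 7.46e-05). YWHAZ (zeta) had a log2 difference of 0.22 (adjusted p = 0.00174), which turned to -0.11 under quantile normalization. YWHAB, YWHAE and YWHAQ did not pass (log2 0.06, 0.01 and 0.05), and the same scaling gave -0.22, -0.28 and -0.21. Of 7 genes, 4 rose and 3 did not pass (median 0.22), and under quantile normalization 2 rose and 4 fell, so the direction of the family depends on the scaling. The fourth that rose, YWHAH, lost its call under quantile normalization and without DMSO replicate 3, Combination replicate 1 or Combination replicate 2 (adjusted p = 0.311, 0.0695, 0.0644 and 0.0591). Of 21 known partner proteins 8 rose, 3 fell and 10 did not pass (median 0.04), where 26.1% of all tested genes rose and 22.2% fell. Under quantile normalization 4 partners were higher and 8 lower. FOXO1, a transcription factor held in the cytoplasm by 14-3-3, went from 569, 489 and 539.7 to 1159.9, 1068 and 1187 (2.14-fold, adjusted p = 9.87e-09).

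Cholesterol and fatty acid genes were called in both directions, the cholesterol genes at shares near those of all tested genes. STARD4, a sterol carrier, went from 424, 410.4 and 465 to 1467, 1661 and 1586 normalized reads (3.62-fold, limma adjusted p = 4.51e-11). HMGCS1, an enzyme at the start of the mevalonate route, rose 1.49-fold, while PMVK and MVK, kinases further along it, fell (log2 -0.54 and -0.45, adjusted p = 1.33e-05 and 0.000115). ABCG1, an exporter of cholesterol, went from 27.2, 21 and 38.1 to 7.39, 14.2 and 9.61 (2.62-fold lower, adjusted p = 0.00387). Of 32 genes 11 rose, 6 fell and 15 did not pass (median 0.03), with 12 lower under quantile normalization, where 26.1% of all tested genes rose and 22.2% fell in the fit without it. Of 16 fatty acid genes 7 rose, 5 fell and 4 did not pass (median 0.08), ACSL1, which activates fatty acids, rising 1.99-fold (adjusted p = 2.41e-06) and the desaturase FADS1 falling (log2 -0.49, adjusted p = 3.64e-06).

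**Figure D3:**
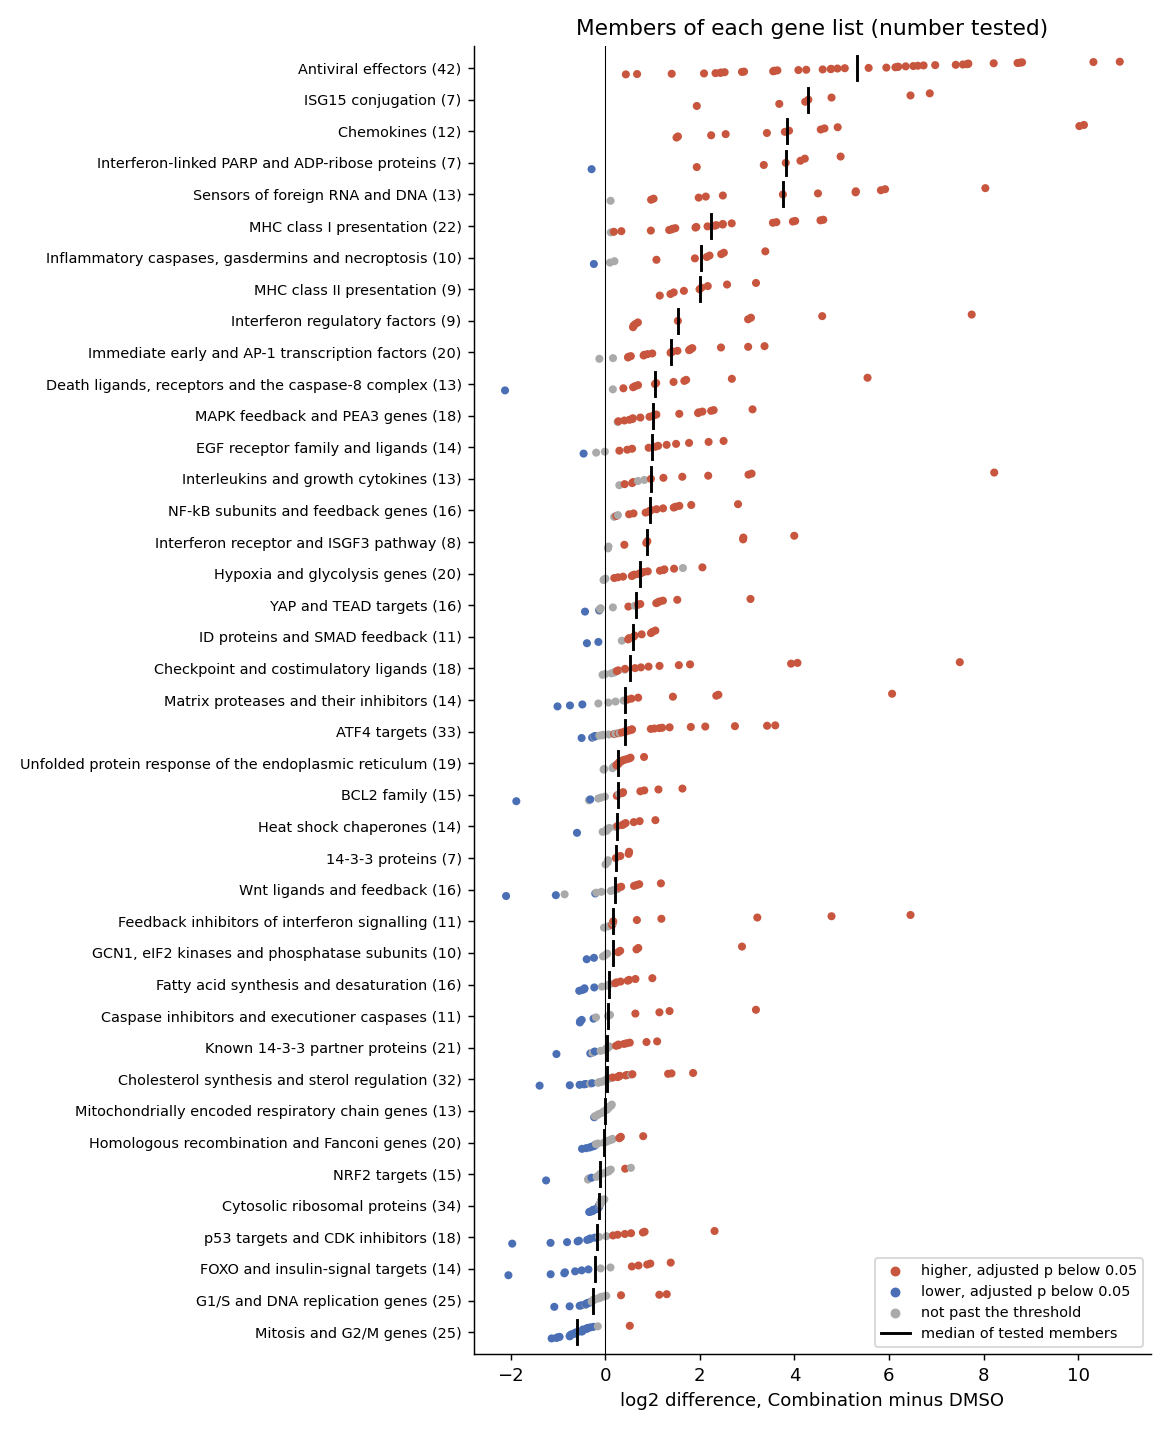
Log2 differences (horizontal axis) of the tested members of each pathway list, without the cell type marker lists, ordered by the list median (black bar). Points are coloured by the limma call. Antiviral effectors stand at the top with a median of 5.32, and of the lists drawn mitosis genes stand at the bottom with -0.59.

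Among genes with a mean of at least 50, the largest decreases were smaller than the largest increases and held genes of several kinds. LMO1, a transcription cofactor, went from 672, 695 and 786 to 92.9, 81.7 and 109 normalized reads (7.56-fold lower, log2 -2.92, SE 0.13, limma adjusted p = 1.92e-10). GRIN2A, a subunit of the NMDA receptor for glutamate, went from 295, 266 and 353 to 61.2, 48.6 and 58.7 (5.33-fold lower, adjusted p = 3.18e-07). RBBP8NL went from 629, 694 and 642 to 157, 166 and 110.0 (4.58-fold lower, adjusted p = 8.30e-09). The DMSO libraries were above every Combination library for all 3. The noncoding RNA RP4-738P15.1 fell 9.28-fold, and CSRNP3, WSCD2, AP003068.12 and ZNF488 fell 4.54-fold, 4.43-fold, 4.61-fold and 4.07-fold (largest adjusted p = 6.01e-06). TNFRSF10D and LGR5, given above, complete the 10 largest decreases among genes with a mean of at least 50 and no overlap. Without these limits 41 genes were called at least 4-fold lower.

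Set against IFNa alone, how many genes the Combination differed in depended on the fit. The limma contrast called 53 genes (0.331%), 22 higher (0.138%) and 31 lower (0.194%), with 2118 at an unadjusted p below 0.05. The count changed with the libraries in the fit: without IFNa replicate 1 it was 4, without IFNa replicate 2 it was 7, without IFNa replicate 3 it was 510, and without replicate 3 of every group 1187. Leaving out FC-A replicate 1 or 3 gave 92 and 89 genes. Leaving out FC-A replicate 2 or any 1 of the DMSO or Combination libraries gave 14 to 27. The DMSO and FC-A libraries enter this contrast only through the shared estimate of the spread. By other tests, edgeR called 55 and DESeq2 239. With the replicate number as a block limma called 1009, though same-numbered libraries could not be shown to be pairs. Against FC-A alone, 7818 genes (48.9%) were called, 4255 higher (26.6%) and 3563 lower (22.3%). Of the 53 genes, 42 were also called against DMSO. The mean of the Combination was above the means of both single agents in 14 of these 42, below both in 16 and between them in 12. These positions order means only and are not a test against both agents. CRIM1 and RIPK4, below both, and VGLL4, above both, did not differ from FC-A (limma adjusted p = 0.621, 0.392 and 0.93). CLIC5, below both, and CDKN1A, above both, did (limma adjusted p = 0.00104 and 1.58e-11).

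Of the 21 genes called in this contrast and examined one by one, 4 kept their call in all 13 fits with libraries left out and in all 11 other settings: DDIT4, CLIC5, FLG and CPA4. DDIT4, whose product restrains the kinase mTORC1, stood at 3717, 3494 and 3753 normalized reads in DMSO, 5251, 5674 and 6208 with FC-A, 2648, 2501 and 3225 with IFNa and 4868, 4955 and 5746 in the Combination. The Combination was above DMSO (log2 0.50, SE 0.091, limma adjusted p = 0.000396) and above IFNa (log2 0.90, SE 0.091, adjusted p = 0.00188), and every IFNa library lay below every DMSO library. Against FC-A alone the Combination did not pass (log2 -0.14, adjusted p = 0.225). CLIC5, of the chloride intracellular channel family, stood at 563, 566 and 506 in DMSO, 318, 306 and 336 with FC-A, 458, 429 and 364 with IFNa and 211, 258 and 198 in the Combination. The Combination was the lowest group, 2.46-fold below DMSO (adjusted p = 2.23e-07) and -0.91 on the log2 scale against IFNa (adjusted p = 0.00358). Against FC-A the log2 difference was -0.53 (adjusted p = 0.00104).

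FLG (filaggrin), a protein of the epidermal barrier, went from 3048, 3079 and 3609 normalized reads in DMSO to 2151, 2245 and 2254 in the Combination, with 2182, 2339 and 2729.7 under FC-A and 3582, 3987 and 3477 under IFNa. Its log2 differences were -0.55 against DMSO and -0.73 against IFNa (limma adjusted p = 9.47e-05 and 0.00292). Against FC-A alone it did not pass (log2 -0.12, adjusted p = 0.262). CPA4, a secreted carboxypeptidase, was not called against DMSO, with 3599, 3611 and 3783 in DMSO and 3595, 3767 and 4173 in the Combination (log2 0.07, adjusted p = 0.433, or -0.13 under quantile normalization). It stood at 1834, 1692 and 1671 with FC-A and 5759, 5334 and 6274 with IFNa, so the Combination lay between the single agents, -0.59 on the log2 scale against IFNa (adjusted p = 0.00292). Against FC-A the log2 difference was 1.15 (adjusted p = 4.24e-09).

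Other genes differed from IFNa with calls that were lost in some fits with 1 library left out. BMF, lowered against DMSO as given above, stood at 3864, 4299.6 and 4936 normalized reads with FC-A and 427, 393 and 452 with IFNa. Its difference of the Combination against IFNa was 0.84 (limma adjusted p = 0.0151), and it was not called without IFNa replicate 1, IFNa replicate 2 or Combination replicate 1 (adjusted p = 0.105, 0.102 and 0.0532). RGCC, a regulator of the cell cycle, differed from IFNa by -0.68 (adjusted p = 0.00814), and lost its call without IFNa replicate 1 or 2 (adjusted p = 0.0785 and 0.0571). CHAC1 and CX3CL1 differed by 0.61 and 0.46 (adjusted p = 0.031 and 0.0434), and each lost its call without any 1 of 9 libraries (adjusted p up to 0.217 and 0.29): the 3 DMSO libraries, FC-A replicate 2, IFNa replicates 1 and 2 and the 3 Combination libraries. For the DMSO and FC-A libraries among these, both differences stayed unchanged. Only the shared estimate of the spread moved, and the limma adjusted p was 0.0547 to 0.079. In the main fit, none of the lists described above had more than 2 members that differed from IFNa in the same direction. None of the 42 antiviral effectors passed that test, and their median log2 difference against IFNa was 0.17. PML, not among them, was called higher than IFNa (log2 0.21, limma adjusted p = 0.0434). These list counts were not taken in the other fits, whose number of calls varied widely, so they do not show that no difference exists.

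**Figure D4:**
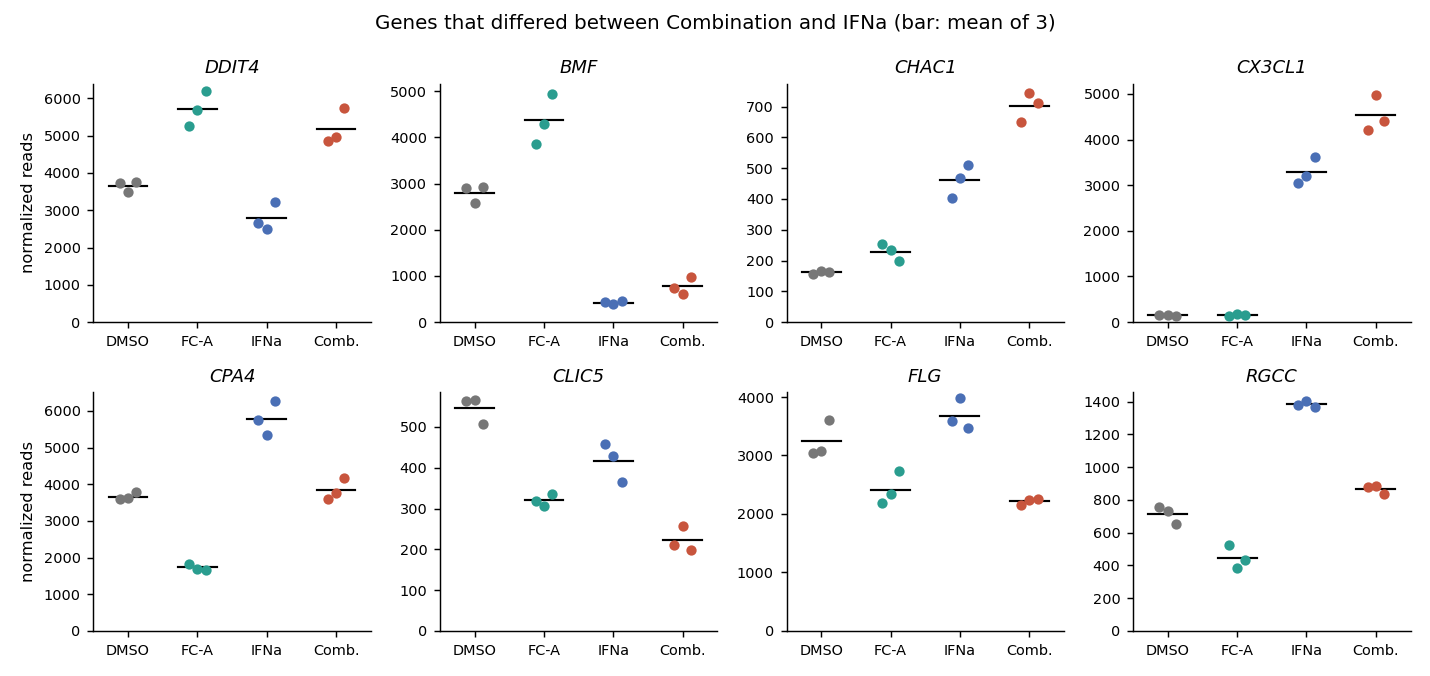
Normalized reads (vertical axes, each from 0) in all 12 libraries for 8 genes called between the Combination and IFNa, with a bar at the mean of 3. DDIT4 and CPA4 in the Combination lie on opposite sides of their IFNa libraries, and the calls of BMF, CHAC1, CX3CL1 and RGCC depend on single libraries.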

How the data were processed

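The 12 OVCAR-3 libraries were made with a stranded poly(A) kit from 100 ng of RNA, per the labels' protocols. Per the submitters' processing notes, bcl2fastq 2.20, FastQC, STAR 2.7.3, DESeq2 1.24.0 and the human build hg19 were used. The sources used here do not give the counting program, the annotation or the strand setting, so overlapping and antisense genes are uncertain. The authors deposited normalized counts per gene (a signal: reads divided by a size factor of each library), and their own fold changes and p-values were not used.

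Dividing by each library's step size gave back whole reads for 100% of the values (tolerance 0.01). The main test was limma 3.58.1 in R 4.3.3 on log2 of the value plus a pseudocount of 1, for genes with a mean of at least 10 over the 12 libraries, with 1 mean per group, a variance trend, two-sided tests and Benjamini-Hochberg adjustment over 15990 genes at 0.05. Fitting all 12 libraries gives a shared estimate of the spread. On the recovered reads, edgeR 4.0.16 called 7783 genes and DESeq2 1.42.0 called 7578. The scripts were tested on simulated data. No 2 libraries of any of the 4 groups agreed within sampling noise.

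Members and the 45 gene lists were chosen with earlier results of these data known. Named were the 10 largest differences in each direction with a mean of at least 50 and no overlap, up to 4 genes per direction and list, a set of fixed genes, the 10 largest per direction called against both IFNa and DMSO, and the 5 most abundant called genes per direction; the text gives part of these. TYK2, CFLAR and the markers DCN and LUM were named after their values were seen. Lists are described by counts and medians, without a test. RefSeq promoters (GRCh38.p14, matched by Ensembl gene identifier, otherwise by symbol) covered 65.6% of tested genes, so shares of motifs between raised and lowered genes were not compared. Of the motifs planned only the interferon-stimulated response element core was used. GCN1 was found under its older symbol, GCN1L1. Some named genes are not reported here.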

Additional observations from a re-analysis of the deposited data

How the results depend on the processing

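Of the gene-level differences against DMSO recomputed under 11 other settings and 13 fits with libraries left out, 6229 kept their direction and side of the threshold, 131 lost their call and 11 changed sign. Against IFNa the counts were 427 kept, 138 lost and 11 gained a call. The calls against DMSO ranged from 6584 to 8029 with libraries left out (higher 3682 to 4315, lower 2902 to 3729). Against IFNa they ranged from 4 to 510 with 1 library left out (higher 1 to 313, lower 3 to 197), were 1187 without replicate 3 of every group (619 and 568), and were 11 without the variance trend (2 higher, 9 lower), 10 with only the compared groups (2 and 8) and 239 with DESeq2 (142 and 97). Genes at least 2-fold lower were 326 with a pseudocount of 8, 849 without a filter and 241 with a minimum mean of 50, where 1026 genes were called at least 2-fold in all. The cause of each change was not tested, except that the filters change the number of genes tested.

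Quantile normalization gave 5479 lower genes against DMSO and 12 higher against IFNa. It changed the sign of YWHAZ (-0.11), IFNAR1 (-0.090), YWHAB (-0.22), YWHAE (-0.28), YWHAQ (-0.21), GCN1L1 (-0.21), CPA4 (-0.13) and ACTN4 (-0.013). YWHAE also changed sign with TMM scaling (-0.0071), in edgeR (-0.0058) and without Combination replicate 1 (-0.034), its range with libraries left out reaching 0.041. The same normalization gave 5 higher and 1 lower feedback genes, 1 lower class I gene, 5 lower BCL2 family genes, 4 lower eIF2 kinase genes, 9 lower ATF4 targets, 6 higher and 2 lower unfolded protein genes, 2 lower EGF family genes, 2 higher and 4 lower 14-3-3 genes, 4 higher and 8 lower partners, 12 lower sterol genes, 4 higher fatty acid genes, 0 higher mitosis genes, 17 lower G1/S genes, 2 lower hypoxia genes, 6 lower NRF2 targets, 33 lower ribosomal genes, 6 lower mitochondrial genes, and 1 higher and 7 lower ovarian markers. Without a filter 1 eIF2 kinase gene, 1 YAP target and 1 ovarian marker were lower. Without the trend 1 YAP target was lower, and DESeq2 called 1 eIF2 kinase gene lower. With a minimum mean of 50, 5 class II genes were higher. TMM scaling, edgeR and the fit of only the compared groups called 2 EGF family genes lower. That fit also gave 14 lower G1/S genes and 1 higher and 3 lower mitochondrial genes. The share of promoters with the core was 3.07% in the 250 bases before the start.

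With libraries left out, the counts ranged as follows: feedback 5 to 8 higher; BCL2 family 5 to 8 higher; lytic death 0 to 1 lower; eIF2 kinases 1 to 2 lower; EGF family 0 to 2 lower. G1/S genes were 4 to 13 lower, repair 4 to 7, YAP targets 1 to 3, NRF2 targets 2 to 4, ribosomal 11 to 22 and mitochondrial 0 to 2. Wnt genes were 2 to 7 higher and 2 to 5 lower, the ID list 1 to 2 lower, ovarian markers 0 to 3 lower, fibroblast markers 0 to 1 lower and endothelial markers 0 to 1 higher.

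The replicate numbers are shared between groups, but same-numbered DMSO and Combination libraries correlated in their deviations by only 0.0176, 0.0806 and 0.188, and IFNa and Combination libraries by 0.0721, 0.107 and 0.298, not all above 0.1, so the numbers were not taken as pairs. In every pair of the 4 groups these correlations were positive, from 0.0176 to 0.395 (FC-A and IFNa replicate 3). For replicate 3 they were at least 0.188. Whether same-numbered libraries shared a batch was not tested. As a hint from the data, Combination replicates 1 and 2 correlated best with DMSO replicate 2 (0.0913 and 0.0806), and Combination replicate 3 with DMSO replicate 3. Against IFNa, Combination replicates 1 and 2 correlated best with IFNa replicate 2 (0.152 and 0.107), and replicate 3 with replicate 3. With the replicate block 8859 genes were called against DMSO (4644 higher, 4215 lower), 7707 of them shared with the fit without it, and 1009 against IFNa (542 higher, 467 lower). With the block 2 EGF family, 5 partner, 16 G1/S, 3 mitochondrial, 5 Wnt and 4 ovarian marker genes were lower.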

Other observations

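Among the genes with the most reads, small differences passed the test. FN1 (fibronectin), an extracellular matrix protein, stood at 135520.0, 114227 and 112527 normalized reads in DMSO and at 164634, 151539 and 188197 in the Combination (log2 0.48, limma adjusted p = 0.00428). HSPA8, the constitutive HSP70 chaperone, stood at 76438, 78771 and 71691 and 100860.0, 100294 and 97132 (log2 0.40, adjusted p = 0.00212). RPL4, of the large ribosomal subunit, stood at 89298, 86768 and 91719.6 and 75116, 72808 and 76786 (log2 -0.25, adjusted p = 0.00122). The groups did not overlap for any of them, as was so for 31.4% (higher) and 29.4% (lower) of all tested genes.

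Outside the pathways described, LIPA, the lysosomal lipase that frees cholesterol and fatty acids, went from 1214, 1159.6 and 1253 to 6817, 6762 and 8433 normalized reads (6.04-fold higher, limma adjusted p = 2.95e-12). RASGEF1B, an exchange factor of the Rap family, went from 153, 166 and 127 to 516, 554 and 538 (3.61-fold higher, adjusted p = 5.72e-09). F2R, the thrombin receptor PAR1, went from 1799, 1695 and 1739 to 796, 784 and 736 (2.26-fold lower, adjusted p = 1.60e-08). TMEM178A, a membrane protein of the endoplasmic reticulum, went from 141, 142 and 113 to 55.9, 48.6 and 33.1 (2.88-fold lower, adjusted p = 2.62e-05). In each of these genes all Combination libraries lay on 1 side of all DMSO libraries, as in 31.4% (higher) and 29.4% (lower) of all tested genes.

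WFDC2 (HE4), a secreted marker of ovarian carcinoma, went from 1827, 1638 and 1798 to 3132, 2855 and 3353 normalized reads (1.77-fold higher, limma adjusted p = 6.35e-06). Of the 15 ovarian epithelial markers 4 rose, 2 fell and 9 did not pass (median 0.03), and under quantile normalization 1 rose and 7 fell. The number lower was 1 without DMSO replicate 1 or 3 or Combination replicate 1 or 2, and 0 without DMSO replicate 2 or Combination replicate 3. As 26.1% of all tested genes rose and 22.2% fell, these counts say little about the markers as a group.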
